A study of Mus musculus with 3 samples.

Results

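The genes described here encode the hydrolases and membrane proteins of the lysosome and the vacuolar proton pump (V-ATPase) that acidifies it, measured in macrophages sorted from mouse lungs after inhaled lipopolysaccharide (LPS). The rule that picks them uses gene names and no measured value. The set holds 35 named lysosomal genes and the 19 genes whose symbol begins with Atp6v or Atp6ap, together 54 of the 12880 genes with a value in any of the 3 deposited tables. Of these, 53 had a level in every library, and Atp6v0e2 was listed only in the table comparing 24 h with 0 h. Bulk RNA sequencing was done on 1 library at each of 0, 4 and 24 h. All groups came from LysM-GFP mice on the C57BL/6 background, aged 6 to 8 weeks, in which the lysozyme M locus drives a green fluorescent protein in myeloid cells. The labels give one treatment text for every sample, nebulized LPS from a 1 mg/ml solution, and do not say whether the 0 h mice had inhaled it. Cells were sorted as GFP+, Ly6g- and CD64+, and the number of animals behind a library is not stated.

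Lysosomes digest lipids, glycans and proteins taken up by a cell, and alveolar macrophages, which clear surfactant and particles from the airspace, rely heavily on them. The V-ATPase consists of a V1 sector that hydrolyses ATP and a membrane-embedded V0 sector that carries protons into the lumen, where the acid hydrolases work. Many lysosomal genes carry in their promoters a short palindromic element, known as the CLEAR element, that is bound by TFEB and its relatives TFE3 and MITF.

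The RefSeq promoter table (build GRCm38.p6, 250 bases before to 50 after each start) held 45 of the 54 genes, with 52 promoters. The core TCACGTG was searched on both strands, where it reads CACGTGA on the other. It was present for 13 of these 45 genes, or 28.9%, against 4.29% of all 27025 genes in that table. The shorter palindrome CACGTG lies inside every such core and was found for the same 13 genes, against 8.09% of all genes. The longer palindrome TCACGTGA, which contains both of the others, was found for 6 of the 45 genes, or 13.3%, against 1.12% of all genes. A match to these letters is a description of the window and not a binding site. For each motif searched, all genes of that table include many without a value in these libraries, so the 2 sets are unlike. The CLEAR element is already known from lysosomal promoters, so its excess here is not a result of these data. The following stretches are the 150 bases before the start of 6 of the 13 genes, 5′ to 3′ on the gene's own strand, with each TCACGTG or CACGTGA in capitals. They were chosen with their levels known and share the core. The transcript of Sgsh was highest at 4 h, and those of the other genes printed were lowest at 4 h. Lamp1 (chr8:13159011-13159160, plus strand) holds 4 copies, Mcoln1 (chr8:3500369-3500518, plus strand) and Atp6v0b (chr4:117887330-117887479, minus strand) hold 2 each, and Naglu (chr11:101069944-101070093, plus strand), Gaa (chr11:119267813-119267962, plus strand) and Sgsh (chr11:119355511-119355660, minus strand) hold 1 each.
Lamp1: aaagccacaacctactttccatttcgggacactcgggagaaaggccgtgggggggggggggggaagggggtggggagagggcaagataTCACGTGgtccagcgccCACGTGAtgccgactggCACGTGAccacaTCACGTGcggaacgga
Mcoln1: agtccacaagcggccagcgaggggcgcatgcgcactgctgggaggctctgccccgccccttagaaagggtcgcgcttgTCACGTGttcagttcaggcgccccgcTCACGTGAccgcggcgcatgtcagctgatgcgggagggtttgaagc
Naglu: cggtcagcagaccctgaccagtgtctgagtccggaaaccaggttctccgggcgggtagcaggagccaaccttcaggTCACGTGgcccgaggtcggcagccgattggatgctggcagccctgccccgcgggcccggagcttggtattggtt
Gaa: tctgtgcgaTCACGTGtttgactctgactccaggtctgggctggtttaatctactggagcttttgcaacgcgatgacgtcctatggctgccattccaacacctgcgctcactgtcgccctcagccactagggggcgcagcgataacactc
Sgsh: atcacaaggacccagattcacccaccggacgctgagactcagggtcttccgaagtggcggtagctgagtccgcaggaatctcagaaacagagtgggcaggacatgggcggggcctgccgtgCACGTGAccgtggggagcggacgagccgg
Atp6v0b: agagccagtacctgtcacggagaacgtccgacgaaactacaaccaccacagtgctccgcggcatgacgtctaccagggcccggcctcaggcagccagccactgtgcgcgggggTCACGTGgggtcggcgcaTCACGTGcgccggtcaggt
The other carriers of the core were Arsa, Atp6v0d1, Atp6v0e, Atp6v1a, Cln3, Gla and Glb1. GGAAGT, or ACTTCC on the other strand, the core of sites for the myeloid factor PU.1, neither contains the CLEAR core nor lies within it and was found for 19 of the 45 genes, or 42.2%, against 26.5% of all genes.

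The libraries also differed in ways that bear on every value below. Whole reads summed over the genes listed were 24825976, 20379236 and 25135476 in the 0, 4 and 24 h libraries, with 12512, 12715 and 12849 genes listed. The 0 h library was read from 1 deposited table and the others from 2 each. The gene counts therefore also depend on the tables used. Summed normalized counts of 23 alveolar macrophage markers were 1039480, 469467 and 638360 in that order of libraries, and those of 13 classical monocyte markers were 121151, 545640 and 103219. Of these markers, 1 alveolar gene was at least 2-fold higher at 4 h than at 0 h and 18 were at least 2-fold lower, while 11 monocyte genes were higher and none lower. At 24 h over 0 h, 8 of the 13 monocyte genes were at least 2-fold higher and 2 lower, where 4.70% and 8.82% of all genes were. The monocyte sum was nonetheless smaller at 24 h, as the most abundant genes weigh most in a sum. Siglec5, the name under which the tables list the alveolar lectin Siglecf, had 10997, 779 and 6211 normalized counts, and Ccr2, the chemokine receptor of classical monocytes, had 2603, 69394 and 13826. The 14 interstitial macrophage markers summed to 31759, 148339 and 56257, and 12 neutrophil markers to 5194, 41678 and 8270, with S100a8 at 412, 3456 and 1040 and S100a9 at 268, 4813 and 1411, although the sort was gated against Ly6g and Ly6g, Mpo and Elane had no value. The 8 pan-macrophage markers summed to 117353, 191117 and 115967, so transcripts of this list were present at every time. At 4 h over 0 h, Fcgr1, Itgam and Ptprc were at least 2-fold higher, while Mertk was lower, with a log2 ratio of -2.66. These are 37.5% and 12.5% of the list, where 15.0% and 14.2% of all genes were. At 24 h over 0 h none was higher by 2-fold and Mertk alone was lower, at -1.72. The 10 lung epithelial markers summed to 15597, 16914 and 15812, but single genes of this list went opposite ways. At 4 h over 0 h Krt18, Krt8, Scgb1a1 and Sftpd were at least 2-fold higher and Cdh1 and Epcam lower. The log2 ratios ran from -2.58 to 5.44. At 24 h over 4 h Krt18, Krt8, Scgb1a1 and Sftpd were at least 2-fold lower and Epcam higher. At 24 h over 0 h only Cdh1 and Epcam passed 2-fold, both lower. Of 10 lymphocyte markers, 9 had a value, 3 of them at 0 h, and the sums were 47, 230 and 406. The 0 h sum of the lymphocyte markers thus covers fewer genes than the later sums, and that of the neutrophil markers covers 11 of the 12. The inactive X transcript Xist had 13705, 4 and 1 reads and the Y-linked Ddx3y had 4, 3994 and 2357, so the sex of the animals differed between 0 h and the later libraries. What these shifts contribute to the lysosomal values was not tested, and in bulk RNA fewer cells of a type and less RNA per cell cannot be told apart.

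At 4 h against 0 h, transcripts of the lysosome were mostly lower. Levels are read counts normalized to a scale common to the 3 libraries, and ratios are plain ratios of those levels followed by their 95% counting interval. Such an interval covers counting error alone. No time point has a replicate, so no ratio has a replicate check and no p-value is given. The 54 genes together took 1.79% of the reads at 4 h, against 2.70% at 0 h, and 2.90% at 24 h. Of 53 genes, 2 were higher at 4 h by 2-fold or more and 12 were lower by as much, or 3.77% and 22.6%, where 15.0% of all 12512 genes were higher and 14.2% lower by the same measure. On the log2 scale of the authors' deposited table, which is shrunken toward 0, 1 of the 53 was higher by a log2 of 1 and 6 were lower, where 8.86% and 9.02% of all genes were. The median log2 ratio was -0.56 for these genes, with 10 above 0 and 43 below, against 0.00 for all genes. The share of genes past 2-fold downward was thus above that of the whole table and the share upward was below it. Recentring the libraries on total reads shifted the median of all genes by -0.16 on the log2 scale at 4 h over 0 h, and with it 20 of the 53 genes were at least 2-fold lower and 1 higher, where 17.1% of all genes were lower and 12.3% higher.

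**Figure D1:**
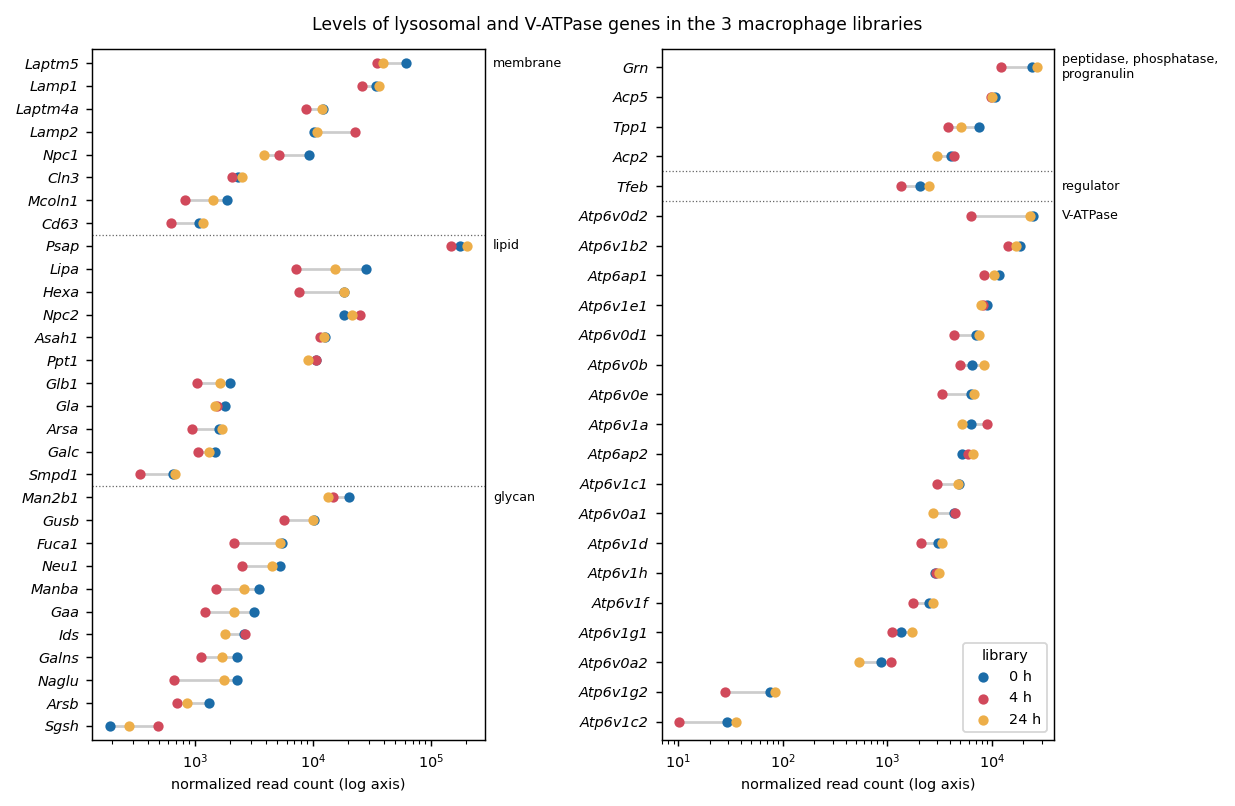
Normalized read count of each gene (log axis) at 0 h (blue), 4 h (red) and 24 h (yellow), with 1 library per time and genes grouped by role from the top of the left panel. Most red points lie left of the others, with Lamp2 at 22630 and Sgsh at 494 among the genes highest at 4 h.

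Among the 8 lysosomal membrane proteins, Lamp2 was at least 2-fold higher at 4 h and Mcoln1 at least 2-fold lower. Each is 12.5% of the group, under the 15.0% of all genes that were higher and the 14.2% that were lower. The median log2 ratio of 4 h over 0 h was -0.61. Lamp2 (chrX:38405049-38456460), one of the pair of heavily glycosylated proteins that line the lysosomal membrane and a component of chaperone-mediated autophagy, had 10299, 22630 and 10862 normalized counts at 0, 4 and 24 h. Only the 4 h library stood apart, 2.20-fold above 0 h (95% counting interval 2.15 to 2.25). Scaled by total reads, its log2 ratio of 4 h over 0 h was 0.98, and the authors' deposited table gives 0.89, so the gene lies at the threshold. Lamp2 is X-linked, as are Atp6ap1, Atp6ap2, Gla and Ids, and without these 5 genes 1 of the others was at least 2-fold higher at 4 h. Lamp1 (chr8:13159161-13175338), its partner and the carrier of 4 copies of the core printed above, had 34536, 25956 and 36426 normalized counts at 0, 4 and 24 h. Mcoln1 (chr8:3500519-3515231), the calcium channel mucolipin-1, had 1898, 834 and 1427 normalized counts at these times. It was 2.28-fold lower at 4 h (2.08 to 2.49), with a log2 value of -0.96 in the authors' deposited table, short of the threshold on that scale. Npc1 (chr18:12189694-12236386), the membrane protein that exports cholesterol from the lysosome, had 9346, 5135 and 3865 normalized counts, and was the one membrane gene with its lowest level in the 24 h library. Laptm5 (chr4:130913334-130936148), a membrane protein of hematopoietic cells, had 61516, 34662 and 39520. Per kilobase of exon it ranked first of the group at 0 and 4 h and behind Lamp1 at 24 h, where it had 15200 normalized counts and Lamp1 16342. At 4 h it was 1.77-fold lower (1.75 to 1.80). Laptm4a, a related membrane protein, the tetraspanin Cd63 and the Batten disease gene Cln3 had ratios of 1.38, 1.71 and 1.13-fold lower at 4 h than at 0 h.

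Of the 11 genes for breakdown and transport of lipids and sphingolipids, 2 were at least 2-fold lower at 4 h, or 18.2% beside the 14.2% of all genes, none was higher by that measure, and the median log2 ratio of 4 h over 0 h was -0.47. Lipa (chr19:34492316-34527474), lysosomal acid lipase, which hydrolyses cholesteryl esters and triglycerides, had 28496, 7209 and 15336 normalized counts at 0, 4 and 24 h. It had the lowest log2 ratio of all 53 genes at 4 h, 3.95-fold below 0 h (3.84 to 4.07), and at 24 h it lay between the other libraries. Hexa (chr9:59539540-59565109), the alpha subunit of beta-hexosaminidase, had 18421, 7587 and 18266 normalized counts. The 4 h library was 2.43-fold lower (2.36 to 2.5), and those of 0 and 24 h had nearly the same level. Psap (chr10:60277628-60302600), the precursor of the saposins that present sphingolipids to their hydrolases, had 177495, 148139 and 202719 and ranked first of all members per kilobase of exon in each library. Per kilobase it reached 64685, 53987 and 73877 normalized counts, and its ratio of 4 h over 0 h was 1.20-fold lower (1.19 to 1.21). Npc2, the soluble cholesterol carrier that works with Npc1, was the one gene of the group above its 0 h level at 4 h, with 25226 normalized counts at 4 h against 18402 at 0 h. Its ratio was 1.37-fold higher (1.34 to 1.40). The acid sphingomyelinase gene Smpd1 had 347 at 4 h against 662 at 0 h, and the beta-galactosidase gene Glb1 had 1052 against 1981. Each was lower by under 2-fold. Arsa (arylsulfatase A), Galc (galactosylceramidase), Gla (alpha-galactosidase A), the acid ceramidase gene Asah1 and the thioesterase gene Ppt1 had ratios of 1.71, 1.39, 1.17, 1.1 and 1.01-fold lower at 4 h.

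The 11 genes for breakdown of glycans and glycosaminoglycans had the lowest median of the role groups with more than 1 gene, -1.01 on the log2 scale at 4 h over 0 h, with 6 genes at least 2-fold lower and 1 higher, or 54.5% and 9.09%, where 14.2% and 15.0% of all genes were. Naglu (chr11:101070094-101077671) and Sgsh (chr11:119343489-119355510), which both act in the stepwise breakdown of heparan sulfate and whose loss causes forms of Sanfilippo disease, lay at opposite ends. Naglu, alpha-N-acetylglucosaminidase, had 2278, 663 and 1757 normalized counts at 0, 4 and 24 h. It was 3.44-fold lower at 4 h (3.13 to 3.79). Sgsh, N-sulfoglucosamine sulfohydrolase, had 192, 494 and 280 normalized counts, 2.57-fold higher at 4 h (2.16 to 3.05). Of its exon bases, 21.9% lie opposite those of Card14, which had 3.74 normalized counts at 0 h and 20.3 at 4 h. The sources used here do not say whether reads were counted by strand. Both promoters hold 1 copy of the core, as printed above.

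The remaining 5 genes past 2-fold were lower at 4 h. Gaa (chr11:119267963-119285458), acid alpha-glucosidase, the enzyme of lysosomal glycogen breakdown, had 3163, 1215 and 2140 normalized counts at 0, 4 and 24 h, 2.60-fold lower at 4 h (2.42 to 2.8). Fuca1 (chr4:135920726-135940300), alpha-L-fucosidase, had 5476, 2166 and 5271, 2.53-fold lower at 4 h (2.4 to 2.67). Manba (chr3:135485611-135571403), beta-mannosidase, had 3523, 1531 and 2598, 2.30-fold lower (2.16 to 2.46). For these enzymes the 4 h library was the lowest, and at 24 h Fuca1 was near its 0 h level while Gaa and Manba were below it. Neu1 (chr17:34931253-34937297), a lysosomal sialidase, had 5283, 2506 and 4516 normalized counts, 2.11-fold lower at 4 h (2.0 to 2.22). Galns (chr8:122578237-122611487), which desulfates keratan sulfate, had 2292, 1134 and 1692, 2.02-fold lower (1.87 to 2.19). The authors' deposited table gives log2 values of -0.97 for Manba, -0.88 for Neu1 and -0.83 for Galns, short of a log2 of 1 in size. Man2b1 (chr8:85083269-85098739), lysosomal alpha-mannosidase and the most abundant of the group per kilobase of exon in each library, had 20082, 14738 and 13448. Arsb (arylsulfatase B) and Gusb (beta-glucuronidase) were 1.90 and 1.80-fold lower at 4 h, and Ids, the X-linked iduronate sulfatase, had 2673 at 4 h against 2602 at 0 h.

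None of the 4 genes of the peptidase, the phosphatases and progranulin passed 2-fold at 4 h over 0 h. Grn (chr11:102430322-102436809), progranulin, a secreted and lysosomal glycoprotein, had 24135, 12248 and 26795 normalized counts at 0, 4 and 24 h. Its ratio of 4 h over 0 h was just inside the threshold, 1.97-fold lower (1.92 to 2.02). Tpp1, tripeptidyl peptidase, had 7508, 3844 and 5125, 1.95-fold lower at 4 h (1.87 to 2.04). The acid phosphatase genes differed less between these libraries, Acp2 with 4330 at 4 h against 4044 at 0 h and Acp5 with 9738 against 10662. Tfeb (chr17:47785744-47792416), the transcription factor of the CLEAR element, had 2055, 1344 and 2487 normalized counts at 0, 4 and 24 h. At 4 h it was 1.53-fold lower (1.42 to 1.65), so it lay on the same side of 0 as 42 of the other 52 genes. Its activity is set largely by phosphorylation and nuclear entry, which transcript levels do not measure.

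Among the 18 V-ATPase genes with a level in every library, 3 were at least 2-fold lower at 4 h, or 16.7%, near the 14.2% of all genes, none was at least 2-fold higher, where 15.0% of all genes were, and the median log2 ratio of 4 h over 0 h was -0.43. Atp6v0d2 (chr4:19876838-19922566), a d subunit of the V0 sector whose expression is high in osteoclasts and some macrophages, had 24775, 6335 and 23267 normalized counts at 0, 4 and 24 h. It was the furthest down of the pump genes, 3.91-fold below 0 h (3.79 to 4.03), and the 0 h and 24 h libraries had nearly the same level. Atp6v0d1, the d subunit made in most tissues, had 7089, 4369 and 7599. The other pump genes past 2-fold were of low level. Atp6v1c2 had 28.9, 10.2 and 35.3 normalized counts at 0, 4 and 24 h, with a wide interval on its 2.85-fold lower level at 4 h (1.28 to 7.18). Atp6v1g2 had 75.6, 27.9 and 83.8, 2.71-fold lower (1.67 to 4.56). Exons of Atp6v1c2 overlap Pdia6 and those of Atp6v1g2 overlap Nfkbil1, each on the opposite strand, and both genes are tissue-restricted forms of the ubiquitous subunits Atp6v1c1 and Atp6v1g1.

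The rest of the pump stayed within 2-fold of 0 h at 4 h. In the V0 sector, Atp6v0e (chr17:26676396-26699646), a small membrane subunit, had 6359, 3318 and 6725 normalized counts at 0, 4 and 24 h, 1.92-fold lower at 4 h (1.83 to 2.01). The proteolipid gene Atp6v0b had 6437, 4947 and 8364. The a subunits Atp6v0a1 and Atp6v0a2, which direct the pump to different membranes, were not lower, with 4422 at 4 h against 4363 at 0 h and 1080 against 861. In the V1 sector, Atp6v1a, the catalytic A subunit, was 1.41-fold higher (1.36 to 1.46), with 8903 at 4 h against 6327 at 0 h, while its partner Atp6v1b2 had 14328 against 18531. The stalk and regulatory subunits Atp6v1c1, Atp6v1d, Atp6v1f, Atp6v1g1 and Atp6v1e1 had ratios of 1.60, 1.47, 1.42, 1.23 and 1.09-fold lower, and Atp6v1h had 2941 against 2871. Of the accessory genes, both X-linked, Atp6ap1 had 8401 at 4 h against 11790 at 0 h and Atp6ap2 had 5979 against 5136. Subunits of one complex thus lay on both sides of 0, with 5 of 18 above it.

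**Figure D2:**
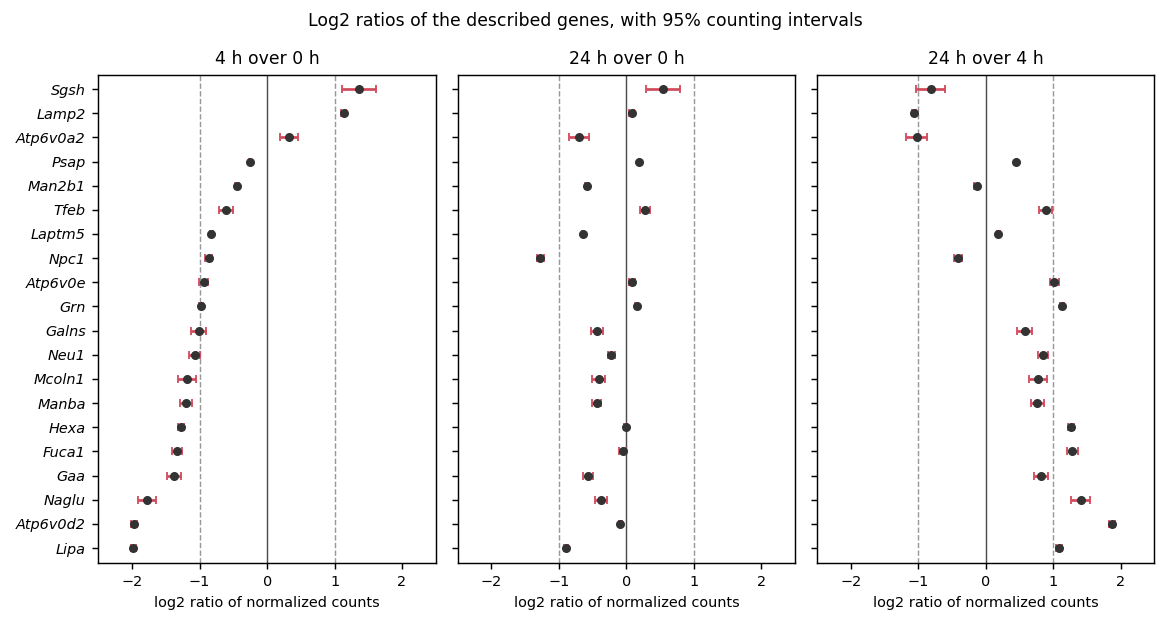
Log2 ratio of normalized counts for the 20 genes described in full, at 4 h over 0 h (left), 24 h over 0 h (middle) and 24 h over 4 h (right), with 95% counting intervals and dashed lines at 2-fold. Lipa and Atp6v0d2 lie lowest at 4 h over 0 h at -1.98 and -1.97, and in the middle panel Npc1 at -1.27 is the single point past a dashed line.

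At 24 h against 0 h, the lysosomal genes were near their 0 h levels. Of 53 genes, none was at least 2-fold higher and 1 was at least 2-fold lower, or 1.89%, where 4.70% of all 12481 genes were higher and 8.82% lower. On the authors' deposited log2 scale 0 were higher and 0 lower by a log2 of 1, where 0.539% and 2.14% of all genes were. The median log2 ratio was -0.05, with 21 genes above 0 and 32 below. Recentred on the ribosomal protein genes, whose own median was 0.56 at 24 h over 0 h, 10 of the 53 were at least 2-fold lower and 1.47% of all genes were higher and 24.6% lower. Scaled by total reads, the median of the 53 turned to 0.11. Npc1 was the 1 gene past 2-fold, 2.42-fold lower at 24 h (2.34 to 2.5), with 3865 normalized counts at 24 h against 9346 at 0 h. The authors' deposited table gives -0.88 for it on the log2 scale, short of the threshold, and 3.68% of its exon bases lie opposite those of a neighbour that the tables list as 3110002H16Rik. Next to it were Lipa, 1.86-fold lower (1.82 to 1.89), Atp6v0a2, 1.62-fold lower (1.47 to 1.80), Atp6v0a1, 1.60-fold lower (1.53 to 1.68) and Laptm5, 1.56-fold lower (1.54 to 1.58). On the other side Sgsh was 1.46-fold higher (1.22 to 1.74), with 280 at 24 h against 192 at 0 h. Of the 12 genes at least 2-fold lower at 4 h, the log2 ratios of 24 h over 0 h lay between -0.89 for Lipa and 0.28 for Atp6v1c2, and both comparisons share the 0 h library.

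By role, the glycan enzymes had the lowest median at 24 h over 0 h, -0.44, with 10 of 11 genes below 0 and Sgsh above it, and this median was below 0 under each scaling. The medians of the membrane proteins, 0.03, the lipid genes, -0.03, and the V-ATPase, 0.09, were close to 0, and each turned sign under at least 1 of the 2 other scalings. The phosphatases, peptidase and progranulin had -0.25. Over the same libraries the alveolar markers had a median of -0.57 and the classical monocyte markers 1.66, with 8 of 13 monocyte genes higher by 2-fold or more and 2 lower by as much. Atp6v0e2, a second form of the e subunit, had 12.3 normalized counts at 24 h, and the authors' deposited table gives 0.20 for its log2 fold change of 24 h over 0 h.

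At 24 h against 4 h, the lysosomal genes were mostly higher. Of 53 genes, 9 were higher by 2-fold or more and 2 were lower by as much, or 17.0% and 3.77%, where 14.1% of all 12684 genes were higher and 17.6% lower. On the authors' deposited log2 scale 4 were higher and 0 lower by a log2 of 1, where 7.26% and 10.2% of all genes were. The upward share was close to that of all genes and the downward share below it. The median log2 ratio was 0.49, with 40 genes above 0 and 13 below. Scaling by total reads moved the median of all genes by 0.32 at this comparison and the split to 22.8% higher and 12.3% lower, while the ribosomal recentring moved it by -0.47 and the split to 881 genes higher and 3805 lower. The count of these genes then came to 21 higher and 0 lower with the first, and 3 higher and 6 lower with the second. The ratio is built on the same 4 h library as that of 4 h over 0 h, so a low value there enters both.

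The highest ratio of 24 h over 4 h was that of Atp6v0d2, 3.67-fold higher (3.56 to 3.79), followed among genes averaging 100 or more normalized counts by Naglu, 2.65-fold (2.41 to 2.92). Fuca1 was 2.43-fold higher (2.31 to 2.57), Hexa 2.41-fold (2.34 to 2.48), Grn 2.19-fold (2.14 to 2.24), Lipa 2.13-fold (2.07 to 2.19) and Atp6v0e 2.03-fold (1.94 to 2.12). Recentred on the ribosomal protein genes, these last 5 and Naglu were short of 2-fold, with log2 ratios from 0.55 for Atp6v0e to 0.93 for Naglu, and Atp6v0d2 was not. The authors' deposited table gives 0.90 for Grn, 0.87 for Lipa, 0.82 for Atp6v0e and 0.9999 for Hexa, all short of a log2 of 1. The low-level Atp6v1c2 and Atp6v1g2 were 3.48-fold (1.62 to 8.57) and 3.0-fold higher (1.88 to 5.0). Tfeb was 1.85-fold higher (1.72 to 1.99). On the lower side, Lamp2 was 2.08-fold lower at 24 h than at 4 h (2.04 to 2.13) and Atp6v0a2 (chr5:124629052-124724455) was 2.03-fold lower (1.83 to 2.26), with 531 normalized counts at 24 h against 1080 at 4 h. Scaled by total reads their log2 ratios were -0.73 and -0.70, and the authors' deposited table gives -0.80 and -0.76, all within 2-fold. Sgsh was 1.76-fold lower. The pump genes Atp6v1a and Atp6v0a1 were 1.71 and 1.63-fold lower, and Atp6v1e1 had 7950 normalized counts at 24 h against 8210 at 4 h. With Atp6v0a2, 4 of the 18 pump genes were thus below 0 at 24 h over 4 h and 14 above it. By role, the medians of 24 h over 4 h were 0.76 for the glycan enzymes and 0.64 for the V-ATPase, which stayed above 0 under both other scalings, and 0.45 for the lipid genes, 0.38 for the membrane proteins and 0.23 for the peptidase, phosphatases and progranulin, which turned to -0.02, -0.10 and -0.24 with the ribosomal recentring. Between the same libraries 12 of 23 alveolar markers were at least 2-fold higher and 10 of 13 classical monocyte markers at least 2-fold lower, and their part in these values was not tested.

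Ratios of partner genes within one library do not depend on how libraries are scaled. They are given here per kilobase of exon. Lamp2 per Lamp1 was 0.132, 0.386 (0.378 to 0.394) and 0.132 at 0, 4 and 24 h, so the makeup of this pair differed at 4 h alone. Naglu per Sgsh was 20.2, 2.28 and 10.7. Atp6v0d2 per Atp6v0d1 was 2.24, 0.930 and 1.96, so that the d2 form had the higher level per kilobase at 0 and 24 h and the d1 form at 4 h (0.891 to 0.972). Npc1 per Npc2 was 0.321, 0.129 and 0.113, lowest at 24 h. Atp6v0a1 per Tcirg1, which encodes the a3 form of the same subunit, was 0.329, 0.291 and 0.217, and Atp6v0a2 per Atp6v0a1 was 0.149, 0.185 and 0.148.

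**Figure D3:**
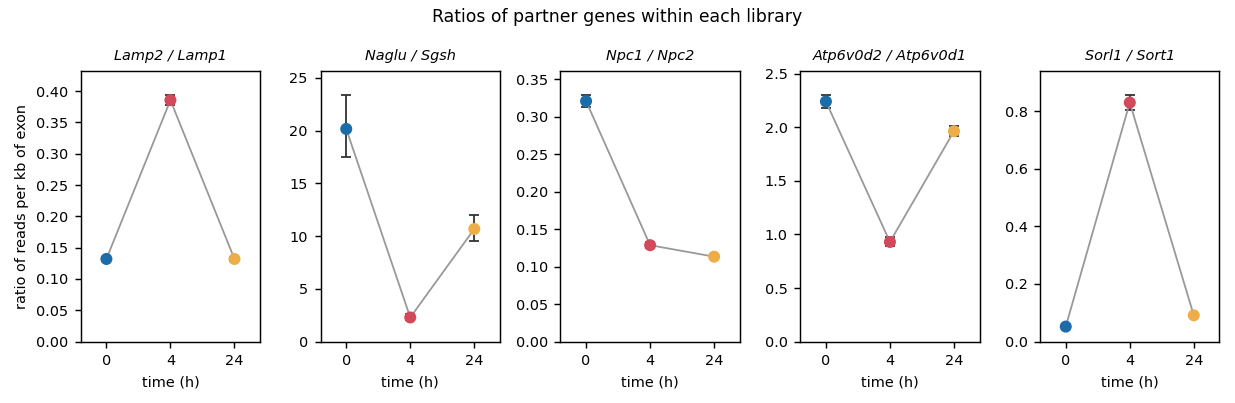
Ratio of reads per kilobase of exon between partner genes within each library, at 0, 4 and 24 h (evenly spaced, not to scale), with 95% counting intervals where they exceed the point and vertical axes from 0. Lamp2 over Lamp1 and Sorl1 over Sort1 are highest at 4 h, the heparan sulfate and d subunit ratios lowest at 4 h, and Npc1 over Npc2 lowest at 24 h.

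Of the genes whose promoters are printed above, Sgsh was highest at 4 h, and Lamp1, Mcoln1, Naglu, Gaa and Atp6v0b were lowest then. The 13 genes with the core TCACGTG had a median log2 ratio of 4 h over 0 h of -0.70, from -1.78 for Naglu to 1.36 for Sgsh, with 1 higher and 3 lower by 2-fold or more. The 31 matched genes without it that had a level in both libraries had a median of -0.56, with 1 higher and 7 lower. Of all genes, 15.0% were higher and 14.2% lower by the same measure. The sets differ in size, but as shares the 3 of 13 and the 7 of 31 lower genes were nearly equal. The 9 genes absent from the promoter table had a median of -0.37, with 0 higher and 2 lower. At 24 h over 4 h the medians were 0.76 with the core, 0.45 without it and 0.27 for the 9 absent genes. Lamp1, with 4 copies, had a log2 ratio of 4 h over 0 h of -0.41, and Mcoln1, with 2 copies, one of them the longer palindrome, had -1.19. Nothing about binding of TFEB follows from a match or from its absence in this window.

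Other genes of the pathway were followed as lists. Of 22 other lysosomal enzymes and cofactors with a level, 9 were at least 2-fold lower at 4 h than at 0 h, or 40.9% beside the 14.2% of all genes, and none higher, with a median log2 ratio of -0.89. Pld3, a lysosomal exonuclease, had 25096, 4657 and 18824 normalized counts at 0, 4 and 24 h, 5.39-fold lower at 4 h (5.21 to 5.58). Dnase2a, the acid DNase that digests engulfed DNA, had 4186, 986 and 3840, 4.24-fold lower (3.93 to 4.59). Aga, Man2b2, Pla2g15, Prcp and Siae were also among the genes of this list past 2-fold. At 24 h over 0 h none of the 22 passed 2-fold in either direction, where 4.70% of all genes were higher and 8.82% lower. At 24 h over 4 h Dnase2a, Pla2g15 and Pld3 were higher, or 13.6%, near the 14.1% of all genes. None was lower by 2-fold then, where 17.6% of all genes were.

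Of 26 other membrane and ion transport genes, 2 were at least 2-fold higher at 4 h and 3 lower, or 7.69% and 11.5%, both under the 15.0% and 14.2% of all genes, with a median of -0.09. Slc11a1, the metal transporter Nramp1 of phagosomes, had 3942, 8548 and 4580 normalized counts at 0, 4 and 24 h, and Slc38a9, the arginine sensor of the lysosomal membrane, had 866, 1862 and 1189. On the lower side were Laptm4b, a relative of Laptm4a, with 784, 171 and 777, Spns1, a lysosomal lysophospholipid transporter, with 2921, 760 and 3390, and Abca2. Of 20 genes that sort hydrolases to the lysosome, 2 were higher and 3 lower at 4 h, the first share under the 15.0% and the second near the 14.2% of all genes, with a median of 0.01. The sorting receptors Sorl1 and Sort1 lay on opposite sides. Sorl1 had 2580, 12376 and 1837 normalized counts, 4.8-fold higher at 4 h (4.60 to 5.01), and Sort1 had 32053, 9615 and 13019, 3.33-fold lower (3.25 to 3.42). Sorl1 per Sort1 per kilobase of exon was therefore 0.0519, 0.829 and 0.0909. Lyst, the Chediak-Higashi gene of lysosome size, had 2781, 8679 and 578, so its 24 h library was 15.0-fold below that of 4 h (13.9 to 16.3). Ap1s1, a subunit of the clathrin adaptor AP-1, had 1704, 703 and 2000, and Gga2 was the other sorting gene at least 2-fold lower at 4 h.

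Of 23 genes of the TFEB family and of nutrient sensing at the lysosome, none was at least 2-fold higher at 4 h and 2 were lower, or 8.70%, under the share of all genes, with a median of -0.09. Lamtor2, a subunit of the Ragulator complex, had 1718, 858 and 2372 normalized counts at 0, 4 and 24 h, 2.0-fold lower at 4 h (1.83 to 2.19), and the other was the low-level Rragd. Of the other factors of the family, chosen for mention after their values were seen, Tfe3 had 2421, 3543 and 2021 and Mitf had 1529, 2103 and 961. Both were above their 0 h level at 4 h, where Tfeb was below it. At 24 h over 0 h, 2 of the 26 membrane genes, 2 of the 20 sorting genes and 1 of the 23 sensing genes were at least 2-fold lower and none of them higher, shares within 2 percentage points of the 8.82% of all genes or below it. At 24 h over 4 h, 2 of the sorting genes were higher and 6 lower, and 2 of the sensing genes were higher and 3 lower, where 14.1% of all genes were higher and 17.6% lower. Of these shares that of the 6 lower sorting genes was above the share of all genes and the other 3 were below it.

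**Figure D4:**
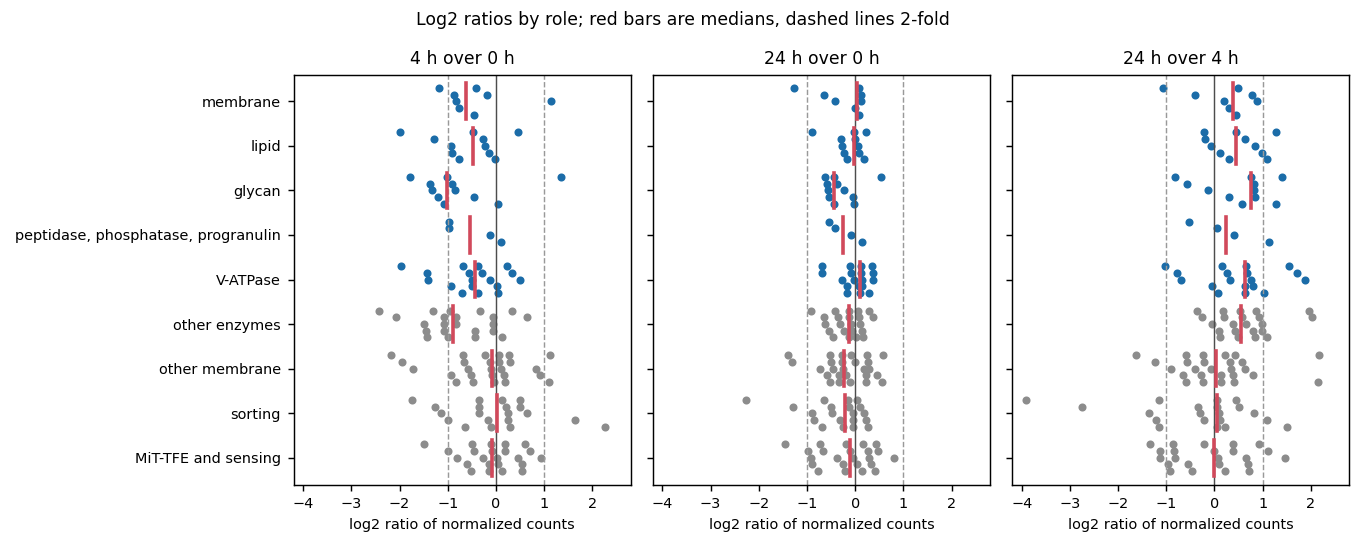
Log2 ratios of normalized counts for each role group with more than 1 lysosomal or V-ATPase gene (blue) and each list of other pathway genes (gray), 1 point per gene, with red bars at the medians and dashed lines at 2-fold. At 4 h over 0 h the medians of the glycan enzymes, -1.01, and of the other enzymes, -0.89, lie furthest below 0, and those of the sorting, sensing and other membrane lists lie near it.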

How the data were processed

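RNA of sorted lung macrophages was sequenced in 1 library per time point (0, 4 and 24 h), and the authors deposited 3 tables of pairwise comparisons on mouse build mm10, with DESeq2 named in the submitters' processing notes. The sources used here do not give the aligner, counter, annotation or counting strand. The column names mention GFP and CD11b, and the labels describe a gate on CD64. The deposited signal columns hold read counts divided by a pairwise factor: every value was a whole multiple of 1 read within 0.001 reads, so whole reads were recovered. The deposited log2 fold changes of the authors run later over earlier and are shrunken, with a median plain fold of 2.48, 2.91 and 2.58 at a deposited log2 of 1 in the tables of 4 h over 0 h, 24 h over 0 h and 24 h over 4 h, so plain ratios were used. The first signal column of the table of 24 h over 0 h is headed 4 h, but the reads its base mean implies equal those of 0 h in 12310 of 12310 genes. It was given to no sample, and 7 columns with values per sample, 6 of them repeats headed as averages, were not used. The tables list genes with a base mean above 10, and 20 repeated lines were dropped. The recovered reads were given no count model, because a time point with a single library gives no estimate of the spread.

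Levels are reads over a size factor, the median of ratios across 12451 genes (1.07 at 0 h, 0.788 at 4 h and 1.22 at 24 h). Ratios on the log2 scale used a pseudocount of 1, and a gene was counted at 2-fold or more. Intervals are exact Clopper-Pearson intervals at 95% on the reads of both libraries. Exon lengths and overlaps came from GENCODE M21 basic, and promoters from RefSeq. The tables' start positions count from 0, since 4921 of 11623 matched exon starts after adding 1 and 533 without, and are given here plus 1. The work used Python 3.11.15 with numpy 2.4.6, scipy 1.17.1, pandas 2.3.3 and matplotlib 3.10.9. The steps were run on simulated counts with few changed genes, as many raised as lowered, all far past the threshold. That run does not bear on the broader changes of these libraries or on calls near 2-fold.

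The genes and lists were chosen with earlier results of these data known. Described in full are genes past 2-fold in any comparison averaging 100 or more normalized counts, the most abundant of each role group and Tfeb, and from each other list up to 2 genes furthest up and 2 furthest down at 4 h over 0 h. The remaining genes are named to account for all members. Tcirg1, Npc2, Lamp1, Tfe3, Mitf, the partner ratios and the printed promoters were chosen after their values were seen. Some genes of the lists are not reported here by name. Alternatives were other scalings, pseudocounts, filters and thresholds, the deposited log2 values, and, chosen after seeing the data, leaving out X-linked genes and genes with an exon overlap.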

Additional observations from a re-analysis of the deposited data

How the results depend on the processing

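No paired analysis was possible because each time point has 1 library, and for the same reason no library could be left out. None of the 20 genes described in full, where called at 2-fold, changed direction under the scalings, pseudocounts, minimum mean or deposited values, and pseudocounts of 0.5 and 5 and a minimum mean of 100 normalized counts moved no count by over 1.5 times. At 4 h over 0 h, where 2 genes were higher and 12 lower with a median of -0.56, total-read scaling gave 1, 20 and -0.71, the authors' deposited log2 fold changes gave 1, 6 and -0.47, a threshold of 1.5-fold gave 26 lower (23.6% of all genes) and one of 3-fold gave 0 higher and 3 lower (7.23% and 7.52% of all genes). Without X-linked genes there was 1 higher and the median was -0.69, and without genes with an exon overlap 1 and -0.68. At 24 h over 0 h, where 1 gene was lower with a median of -0.05, total-read scaling gave a median of 0.11, ribosomal recentring gave 10 lower and -0.61, a 1.5-fold threshold 6 lower (19.0% of all genes), and a 3-fold threshold, the deposited values or leaving out overlapping genes 0. At 24 h over 4 h, where 9 were higher and 2 lower with a median of 0.49, total-read scaling gave 21, 0 and 0.81, ribosomal recentring 3, 6 and 0.02, 1.5-fold 25 and 5 (26.1% and 28.2% of all genes), 3-fold 2 and 0 (5.87% and 9.01%), and the deposited values 4, 0 and 0.42. Leaving out X-linked genes gave 1 lower and 0.64, and leaving out overlapping genes 1 and 0.64. The scalings shift every gene alike, by -0.16, 0.17 and 0.32 for total reads and 0.02, -0.56 and -0.47 for ribosomal recentring in the 3 comparisons in the order above, so the place of these genes among all genes does not depend on them. Of 360 log2 ratios of single genes under alternatives, 211 stayed within the counting interval, 149 did not and 0 turned the direction of a called value. All 149 were under the other scalings or the deposited values. A minimum mean leaves the ratio of a gene as it was, and the pseudocounts hardly move genes of these levels. Much of the 211 was therefore fixed in advance and is no measure of stability. Low-level Atp6v1c2, with 8 reads at 4 h, is limited by depth.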
